A study of Mus musculus with 25 samples.

Results

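Imprinted growth genes, 10 in number, were followed in the sciatic nerve of young mice: Igf2, H19, Dlk1, Meg3, Peg3, Mest, Plagl1, Cdkn1c, Ndn and Grb10. They were chosen by name, as known imprinted genes that act on body growth, and their symbols were matched to the Ensembl identifiers of the count table, which gave 10 genes of 56956. The choice was made with earlier results of these data known. Counts of called members set against all genes therefore describe this list and are no independent test of it. Every one was found, and 9 of the 10 were high enough to be tested across all genes, Igf2 being the exception.

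Polyadenylated RNA was sequenced from 2 transgenic models of Charcot-Marie-Tooth disease type 1A (CMT1A), a demyelinating neuropathy caused by duplication of PMP22, the gene of a myelin membrane protein. The C3 group was B6.Cg-Tg(PMP22)C3Fbas/J on C57BL/6J, with 5 human PMP22 copies, and its control WT-C3 was C57BL/6J. The C22 group was Tg(PMP22)C22Clh on FVB/NRJ, with 10 copies, and its control WT-C22 was FVB/NRJ. The C3 c-JunP0Cre group was C3-PMP22 that also lacked c-Jun in Schwann cells through P0Cre. The mice received no treatment, the transgenic lines were kept heterozygous, and the transgene was a yeast artificial chromosome that holds the human gene. P0Cre is meant to act in Schwann cells, and counts from whole nerve cannot show which cells kept c-Jun. Each group had 1 library at each of 5 ages between 3 and 12 weeks (the others being 5, 7 and 9), and each library was a pool of nerves from 4 to 5 animals of both sexes.

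The names of all 25 libraries share a common prefix, and the sample labels name no batch. Library totals ran from 2140142 counts in C3 at 9 weeks to 49072746 in C3 at 7 weeks, with a median of 24663235. Human PMP22 was at 10200 to 13900 CPM (counts scaled to library size) in C3, 8020 to 15900 in C3 c-JunP0Cre and 9960 to 13800 in C22. Its RNA was thus no higher in C22 than in C3 despite the copy numbers, and it was at most at 6.37 CPM in the controls. Jun was at 26.5 to 32.3 CPM in C3 c-JunP0Cre against 93.8 to 121 in C3. The myelin gene Mbp, which myelinating Schwann cells express, stood at 6710 CPM or above in every library. Skeletal muscle markers summed to between 6.2 and 10700 CPM and were highest in WT-C22 at 5 weeks and C3 at 12 weeks.

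An imprinted gene is expressed mainly from the copy inherited from 1 parent. Many paternally expressed members of the family promote growth before and shortly after birth, many maternally expressed ones restrain it, and a group of them is known to be switched down together in several organs as postnatal growth slows. These counts do not separate the parental copies, so every value below is the total of both. The nerve was sampled whole, and fewer cells of a type and less RNA per cell cannot be told apart.

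The 10 genes lie on 5 chromosomes of GRCm39. Igf2 (chr7:142204503-142220694, minus strand), a fetal growth factor, and H19 (chr7:142129262-142133957, minus strand), a long noncoding RNA expressed from the maternal copy, are neighbours that share enhancers. Dlk1 (chr12:109418749-109429262, plus strand), a membrane-bound and secreted relative of the Notch ligands, and Meg3 (chr12:109506877-109538165, plus strand), a maternally expressed long noncoding RNA, form another such pair. Peg3 (chr7:6706882-6733468, minus strand) and Plagl1 (chr10:12936248-13007438, plus strand) encode zinc finger transcription factors, and Mest (chr6:30723546-30752058, plus strand) encodes a hydrolase-like membrane protein. Cdkn1c (chr7:143012069-143014806, minus strand) encodes the cyclin-dependent kinase inhibitor p57, Ndn (chr7:61995473-62000010, plus strand) the growth suppressor necdin, and Grb10 (chr11:11880498-11988683, minus strand) an adaptor that restrains signalling by the insulin and IGF1 receptors.

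The RefSeq promoter table (GRCm38.p6, 250 bases before to 50 bases after each start) held 15 promoters for 8 of the 10 genes and none for H19 or Cdkn1c. Promoters are shown for Meg3, the member whose decline passed the test in most groups, and for Peg3, the promoter that held the GC-rich motif. Each line gives the 250 bases before the start, 5′ to 3′ on the gene's own strand, and the capitals mark the motif found. The Peg3 stretch is chr7:6730420-6730669 on the minus strand and the Meg3 stretch is chr12:109540746-109540995 on the plus strand.
Peg3: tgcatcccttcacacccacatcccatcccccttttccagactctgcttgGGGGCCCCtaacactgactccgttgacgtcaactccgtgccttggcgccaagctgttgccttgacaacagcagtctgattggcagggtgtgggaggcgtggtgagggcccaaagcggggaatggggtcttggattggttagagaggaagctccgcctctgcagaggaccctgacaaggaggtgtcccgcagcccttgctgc
Meg3: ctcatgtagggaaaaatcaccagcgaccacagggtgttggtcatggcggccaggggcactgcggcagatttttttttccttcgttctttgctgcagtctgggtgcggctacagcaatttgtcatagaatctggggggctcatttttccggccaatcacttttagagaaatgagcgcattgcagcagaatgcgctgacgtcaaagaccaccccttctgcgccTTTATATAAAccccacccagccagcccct

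The 3 motifs were searched on both strands were GGGGCCCC, a palindromic GC-rich core bound by PLAGL1-type zinc fingers, GCCATNTT, the core of the YY1 site, and TATAAA, the TATA box. GGGGCCCC was in 1 of the 15 promoters, that of Peg3, 201 bases before the start, and in 1.08% of all 32851 promoters. TATAAA was in 1 of 15, that of Meg3, at 25 bases before the start and, on the other strand and overlapping it, at 29, and in 13.62% of all promoters. GCCATNTT was in 0 of 15 and in 6.05% of all promoters. A match describes these letters in this window and not the binding of a factor.

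Levels were compared between genes per length, as mean CPM per kb of exon over the 25 libraries. H19 was highest at 67.4 ± 50.1 (SD), followed by Cdkn1c at 28.8 ± 6.21, Meg3 at 12.4 ± 4.93 and Ndn at 10.3 ± 2.05. Grb10 stood at 7.13 ± 1.5, Peg3 at 4.83 ± 1.45, Mest at 4.21 ± 1.9 and Plagl1 at 2.67 ± 0.772, and the lowest were Dlk1 at 1.18 ± 1.12 and Igf2 at 0.106 ± 0.108. Of the 9 neighbouring steps in this order, the step from Cdkn1c to Meg3 alone, 16.4 CPM per kb, was larger than the sum of both SDs.

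Most of the genes fell as the mice matured. Between 3 and 12 weeks, Dlk1, Meg3, Peg3, Mest, Plagl1 and Ndn were lower at the later age in 5 of 5 groups, and H19, Grb10 and Igf2 in 4 of 5. Cdkn1c was lower at 12 weeks in 2 of 5 groups. The 3-week level was 2.24 to 7.53 times the 12-week level for Dlk1 across the groups, 1.56 to 4.9 times for Mest, 2.05 to 2.87 times for Meg3, 1.07 to 2.46 times for Plagl1, 1.05 to 1.91 times for Peg3 and 1.07 to 1.48 times for Ndn. It was 0.856 to 5.41 times for H19, 0.993 to 1.55 times for Grb10 and 0.68 to 1.3 times for Cdkn1c.

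**Figure D1:**
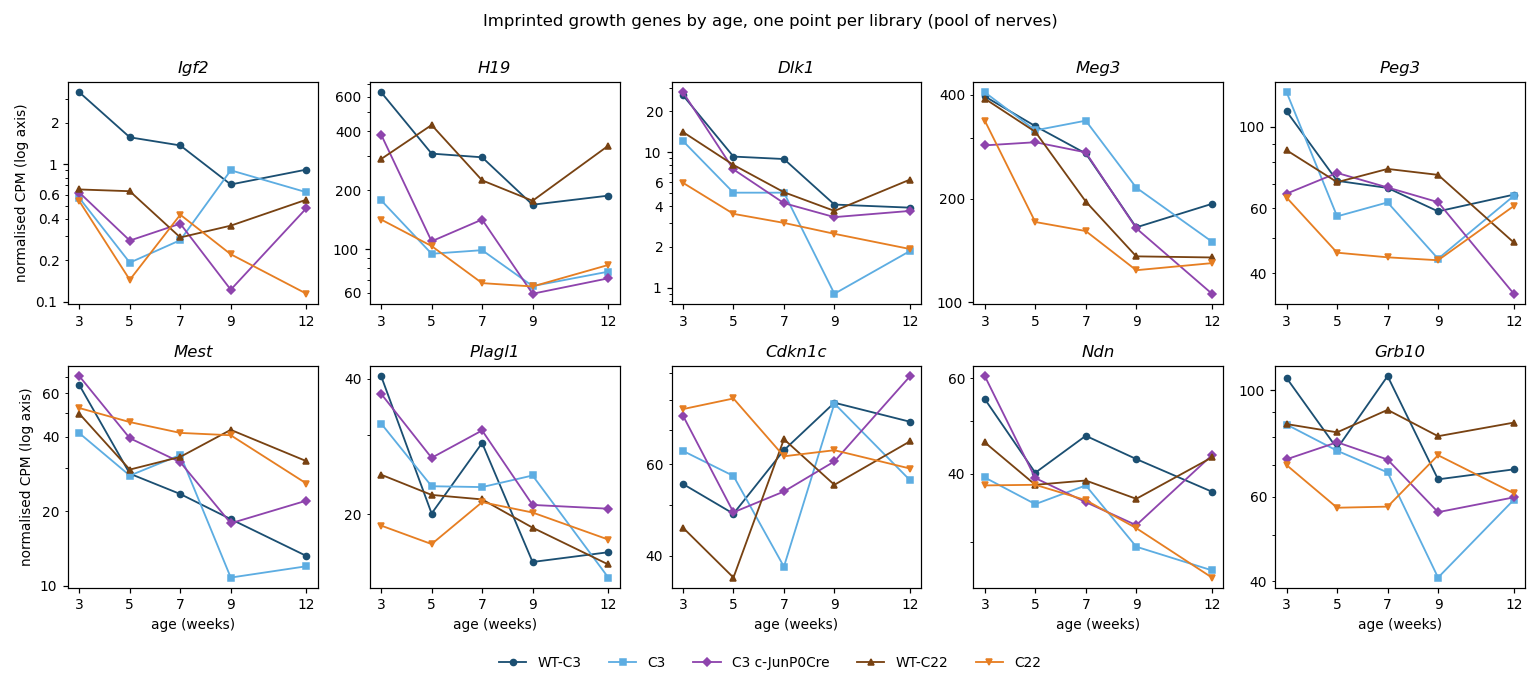
Level of each of the 10 genes (CPM, log axis) against age in weeks, with 1 line per group and 1 point per library. Dlk1 falls in all 5 groups, from 5.95 to 27.7 CPM at 3 weeks to 1.87 to 6.29 at 12 weeks, whereas the lines of Cdkn1c cross without a common direction.

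Dlk1 had the steepest decline. In WT-C3 it was at 26.3, 9.29, 8.91, 4.11 and 3.90 CPM, in order of age from 3 to 12 weeks. In C3 it was at 12.1, 5.03, 5.03, 0.903 and 1.87 CPM, the 9-week value resting on 2 counts, under the detection floor of 3 counts. In C3 c-JunP0Cre it was at 27.7, 7.47, 4.21, 3.32 and 3.69 CPM. The 3-week library was the highest in each of these groups, and no later library of a group reached it. In WT-C22 Dlk1 was at 14.1, 8.06, 5.07, 3.69 and 6.29 CPM, and in C22 at 5.95, 3.51, 3.01, 2.50 and 1.93. The same held in the FVB/NRJ groups, with a smaller drop.

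Meg3, the noncoding partner of Dlk1, fell more evenly. It was at 395, 324, 270, 165 and 193 CPM in WT-C3 from 3 to 12 weeks, at 406, 315, 336, 215 and 150 in C3, and at 285, 291, 272, 164 and 106 in C3 c-JunP0Cre. It was at 389, 312, 196, 136 and 135 CPM in WT-C22 and at 336, 171, 161, 124 and 130 in C22. In each group both the 9-week and the 12-week library were below every library of 3 to 7 weeks.

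Mest was at 64.8, 28.4, 23.5, 18.6 and 13.2 CPM in WT-C3, at 41.4, 27.9, 33.8, 10.8 and 12.0 in C3, and at 70.4, 39.5, 31.6, 17.9 and 22.1 in C3 c-JunP0Cre. In WT-C22 it was at 49.6, 29.5, 33.2, 42.7 and 31.9 CPM and in C22 at 52.3, 45.9, 41.5, 40.6 and 25.9. The 3-week library was the highest in all 5 groups, but in WT-C22 the later libraries had no order by age.

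H19 was at 633, 308, 295, 169 and 188 CPM in WT-C3, at 178, 95, 99.1, 65.0 and 77.0 in C3, and at 385, 110, 142, 59.4 and 71.2 in C3 c-JunP0Cre. In WT-C22 it was at 289, 431, 225, 177 and 338 CPM and in C22 at 142, 104, 67.3, 64.7 and 83.3. The 3-week library was the highest in every group except WT-C22, where the highest was the 5-week library, 1 of the 2 libraries with the most muscle RNA. In all 5 groups H19 was lowest at 9 weeks.

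Across the 5 groups, 7 of the 9 tested genes were lower at 12 than at 3 weeks in edgeR's quasi-likelihood test, with p-values adjusted over all 15298 genes tested and a threshold of 0.05. Over all genes, 9.91% were called lower in this contrast, and the median log2 change was −0.82 for the 9 genes against 0.01 for all genes. Dlk1 fell by 2.21 on the log2 scale (SE 0.25, 95% interval −2.73 to −1.69, adjusted p = 2.78e-06). Mest fell by 1.48 (SE 0.23, adjusted p = 9.36e-05), Meg3 by 1.35 (SE 0.14, adjusted p = 1.73e-06) and H19 by 1.24 (SE 0.24, adjusted p = 9e-04). The smaller falls were those of Plagl1 at −0.82 (SE 0.14, adjusted p = 0.00022), Peg3 at −0.68 (SE 0.18, adjusted p = 0.00805) and Ndn at −0.44 (SE 0.11, adjusted p = 0.00493). Grb10, at −0.32 (SE 0.13, interval −0.6 to −0.05, adjusted p = 0.078), and Cdkn1c, at 0.14 (SE 0.18, interval −0.24 to 0.51, adjusted p = 0.652), did not pass.

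**Figure D2:**
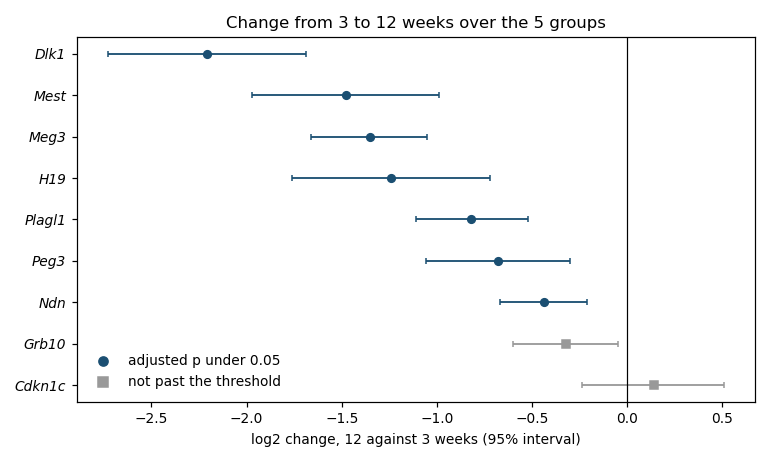
Log2 change from 3 to 12 weeks over the 5 groups for the 9 tested genes, with 95% intervals from the edgeR fit and a line at 0. The intervals of 7 called genes lie below 0, from Dlk1 at −2.21 to Ndn at −0.44, and that of Cdkn1c crosses it.

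A straight line over all 5 ages, with 1 slope shared by the groups, called 8 of the 9 genes lower, Grb10 included. Over all genes 13.0% were called lower, and the median slope was −0.08 log2 units per week for the 9 genes against 0 for all genes. The slopes were −0.25 for Dlk1 (SE 0.03, adjusted p = 6.22e-06), −0.16 for Meg3 (SE 0.02, adjusted p = 1.25e-07), −0.15 for Mest (SE 0.02, adjusted p = 2.98e-05) and −0.14 for H19 (SE 0.03, adjusted p = 0.000931). Plagl1 at −0.08 (adjusted p = 0.00031), Peg3 at −0.07 (adjusted p = 0.00675) and Ndn at −0.05 (adjusted p = 0.00361) fell more slowly. Grb10 at −0.04 (adjusted p = 0.0367) lost its call in 7 of the 25 fits that left out 1 library, with adjusted p from 0.0509 to 0.0766, namely without C3 c-JunP0Cre at 5, 9 or 12 weeks, or C3 or WT-C3 at 3 or 12 weeks. Cdkn1c had a slope of 0.03 (SE 0.02, adjusted p = 0.301).

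The FVB/NRJ groups were also fitted apart from the others. C3 c-JunP0Cre, whose strain background the labels do not give, was placed with WT-C3 and C3 because it carries the C3 transgene. In WT-C3, C3 and C3 c-JunP0Cre 8 of the 9 genes had a falling slope that was called, among them H19 at −0.19 (adjusted p = 0.000628), Mest at −0.21 (adjusted p = 3.4e-05) and Dlk1 at −0.31 (adjusted p = 4.87e-05), where 9.07% of all genes were called lower. In the 2 groups on FVB/NRJ alone, 2 of 9 were called lower, Dlk1 at −0.15 (adjusted p = 0.0301) and Meg3 at −0.16 (adjusted p = 0.00979). H19 at −0.06 (adjusted p = 0.34) and Mest at −0.07 (adjusted p = 0.0801) also had slopes below 0 there but were not called. The share of all genes called lower was smaller there too, at 2.34%. Between 12 and 3 weeks the counts were 8 of 9 in WT-C3, C3 and C3 c-JunP0Cre and 1 of 9 on FVB/NRJ, beside 6.79% and 0.193% of all genes. The fit on FVB/NRJ held fewer libraries and called fewer genes over the whole table. With a straight line in each group, the share of all genes called lower was largest in WT-C22 (3.88%) and smallest in C22 (0.307%), both on FVB/NRJ. The part of the strain in these counts was not tested.

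The first interval, from 3 to 5 weeks, held the largest single steps of Dlk1 (log2 change −1.31, SE 0.24), H19 (−0.8) and Mest (−0.72). None of these passed the adjustment, and neither did any gene of the whole table (0% called, 870 genes at an unadjusted p under 0.05). Of the 9 genes, 7 had an unadjusted p under 0.05 in this interval, the adjusted p of Dlk1 being 0.107. DESeq2 called 19 of 15298 genes in this interval, with Dlk1 alone among the 9. From 7 to 9 weeks 5 of the 9 had an unadjusted p under 0.05, Meg3 showing a log2 change of −0.61 (adjusted p = 0.381). No member reached that level from 5 to 7 or from 9 to 12 weeks.

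Group by group, the number of genes with a called decline differed, as did the background. With a straight line in each group, WT-C3 had 4 of 9, Dlk1 (slope −0.31 log2 units per week, adjusted p = 0.0183), Mest (−0.24, adjusted p = 0.00417), Plagl1 (−0.13, adjusted p = 0.0159) and Meg3 (−0.13, adjusted p = 0.0485), where 1.56% of all genes were called lower. C3 had the same 4, Dlk1 (−0.30, adjusted p = 0.0247), Mest (−0.20, adjusted p = 0.0141), Meg3 (−0.16, adjusted p = 0.0164) and Plagl1 (−0.11, adjusted p = 0.04), against 2.44% of all genes. C3 c-JunP0Cre had 4, Dlk1 (−0.32, adjusted p = 0.00486), H19 (−0.26, adjusted p = 0.0109), Mest (−0.19, adjusted p = 0.00767) and Meg3 (−0.17, adjusted p = 0.0107), against 2.69%. WT-C22 and C22 had Meg3 alone, at −0.18 (adjusted p = 0.00297) against 3.88% of all genes and at −0.14 (adjusted p = 0.0488) against 0.307%. Meg3 was the member called in all 5 groups, but its calls in WT-C3 and in C22 were each lost in 14 of the 25 fits without 1 library. Without the 3-week libraries these counts became 0 in WT-C3, C3 and C22 and 1 in C3 c-JunP0Cre. Calls over all genes, in either direction, also dropped, from 401 to 7 in WT-C3 and from 912 to 85 in C3. In C3 c-JunP0Cre they dropped from 913 to 203 and in C22 from 120 to 2. Leaving out 1 library at a time gave 0 to 4 members in WT-C3 and C3, 1 to 5 in C3 c-JunP0Cre and 0 to 1 in the FVB/NRJ groups.

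**Figure D3:**
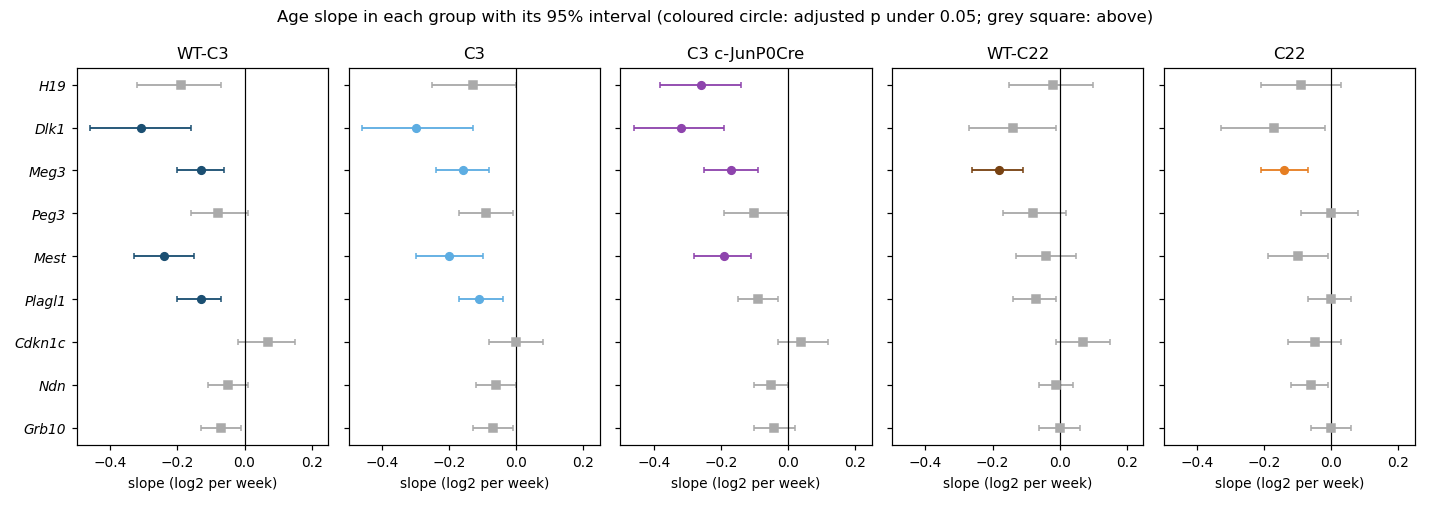
Age slope of the 9 tested genes in each of the 5 groups, in log2 units per week with 95% intervals from the edgeR fit. Coloured circles mark calls at an adjusted p under 0.05 and grey squares the rest: 4 genes each in WT-C3, C3 and C3 c-JunP0Cre, and Meg3 alone in WT-C22 and C22.

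A smooth age curve in each group (a natural spline, which detects any change with age) called Dlk1 (adjusted p = 0.0338) and Mest (adjusted p = 0.0347) in WT-C3, where it called 0.693% of all genes. In C3 it called Dlk1 (adjusted p = 0.0376), Meg3 (adjusted p = 0.0299) and Peg3 (adjusted p = 0.034), against 2.27% of all genes. In C3 c-JunP0Cre it called Dlk1 (adjusted p = 0.00529), Meg3 (adjusted p = 0.0143), Mest (adjusted p = 0.0249), H19 (adjusted p = 0.0308) and Ndn (adjusted p = 0.042), against 3.38%. In WT-C22 (adjusted p = 0.00892, background 2.86%) and C22 (adjusted p = 0.0375, background 0.752%) it called Meg3. Many of these calls rest on single libraries, including those of other groups: of the 25 fits without 1 library, 16 lost Dlk1 and 13 lost Mest in WT-C3, 16 lost Dlk1, 13 Peg3 and 6 Meg3 in C3, 13 lost Ndn in C3 c-JunP0Cre (1 to 3 for its other members) and 12 lost Meg3 in C22 (2 in WT-C22).

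The slopes themselves were not shown to differ between groups. No member was called in any of the 4 slope differences, for which the backgrounds were 0.0196% (C3 minus WT-C3), 0.464% (C22 minus WT-C22), 0.00654% (C3 c-JunP0Cre minus C3) and 0% (WT-C22 minus WT-C3, with 1512 genes at an unadjusted p under 0.05), nor in the test that all 5 slopes are equal (0.222%). The intervals are wide: for Dlk1 the difference C3 minus WT-C3 was 0.01 log2 units per week (interval −0.21 to 0.24) and C22 minus WT-C22 −0.04 (−0.24 to 0.17), and for H19 they were 0.06 (−0.11 to 0.24) and −0.07 (−0.24 to 0.11). The greatest difference was that of Mest between the controls, 0.20 flatter in WT-C22 than in WT-C3 (SE 0.06, interval 0.08 to 0.33, adjusted p = 0.333). Cdkn1c had a lower slope in C22 than in WT-C22, by −0.12 (interval −0.24 to −0.01, adjusted p = 0.342).

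Set against its control over all 5 ages, each model had less H19. In C3 the mean was 103 ± 44.3 CPM (SD, n = 5) compared to 319 ± 186 in WT-C3, and in C22 it was 92.3 ± 32.0 compared to 292 ± 98.8 in WT-C22. The C3 level was lower at 5 of 5 ages, at 0.281 to 0.409 times the control, and 4 of the 5 C3 libraries were below the lowest control library. The C22 level was lower at 5 of 5 ages, at 0.241 to 0.492 times the control, and the groups did not overlap. The log2 change was −1.62 in C3 (SE 0.36, interval −2.45 to −0.78, adjusted p = 0.00846) and −1.65 in C22 (SE 0.28, interval −2.29 to −1.02, adjusted p = 0.000622). Leaving out each library in turn gave −1.9 to −1.21 in C3 and −1.87 to −1.47 in C22, and H19 was called each time. Without the 2 libraries highest in muscle markers the values were −1.51 (adjusted p = 0.0158) and −1.47 (adjusted p = 0.0013).

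Dlk1 was lower in both models at 5 of 5 ages, at 0.22 to 0.565 times the control in C3 and 0.307 to 0.677 in C22. It was called in C22, with 3.38 ± 1.55 CPM compared to 7.44 ± 4.06 in WT-C22 (log2 change −1.12, SE 0.38, adjusted p = 0.0342), though the groups overlapped. In C3, with 4.99 ± 4.4 CPM compared to 10.5 ± 9.21, the change of −0.92 (SE 0.6, adjusted p = 0.288) did not pass this test, in which the spread over age counts as error, but passed with age as a block (−1.04, adjusted p = 0.00238). The C22 call was lost in 6 of 10 fits without 1 library (C22 at 5, 7, 9 or 12 weeks, WT-C22 at 3 or 5 weeks), with log2 changes from −1.14 to −0.74 and adjusted p from 0.0586 to 0.0941.

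Grb10 was lower in C22 without overlap between the groups. It was at 69.8, 56.9, 57.2, 73.2 and 61.0 CPM in C22 and at 85.0, 81.7, 91.0, 80.2 and 85.6 in WT-C22, which is 0.628 to 0.913 times the control at matched ages. The log2 change was −0.41 (SE 0.08, adjusted p = 0.00159), and it was called without each library in turn, from −0.45 to −0.37. In C3 Grb10 was lower at 5 of 5 ages, with 65.4 ± 16.7 CPM compared to 84.5 ± 20.6 and a log2 change of −0.34 (SE 0.19, adjusted p = 0.212).

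Peg3 was at 64.2, 45.5, 44.2, 43.4 and 60.9 CPM in C22 and at 86.3, 70.7, 76.8, 74.0 and 48.5 in WT-C22, lower at 4 of 5 ages, with a log2 change of −0.45 (SE 0.16, adjusted p = 0.0422). The 12-week pair went the other way. This call was lost in 7 of 10 fits without 1 library (C22 at 5, 7 or 9 weeks, WT-C22 at 3, 5, 7 or 9 weeks), with adjusted p from 0.064 to 0.0951 and log2 changes from −0.46 to −0.37. In C3 the log2 change of Peg3 was −0.06.

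Ndn was lower in C3 at 5 of 5 ages, at 0.689 to 0.875 times the control (log2 change −0.38, SE 0.13, adjusted p = 0.054), and had a log2 change of −0.25 in C22 (adjusted p = 0.102). Meg3 was lower in C22 at 5 of 5 ages, with a log2 change of −0.33 (adjusted p = 0.479), and had one of 0.08 in C3. Mest (−0.17 in C3, 0.15 in C22) and Plagl1 (−0.06 and −0.09) were close to their controls. Cdkn1c was the member with the highest value in C22, at 0.34 (SE 0.16, adjusted p = 0.113), and was at −0.14 in C3.

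In all, 1 of 9 genes was called lower in C3, where 11.4% of all genes were, and 4 of 9 in C22, where 20.5% were, and none was called higher in either. The median log2 change was −0.17 in C3 and −0.33 in C22, against 0 over all genes in both. With age as a block the count was 4 in C3, where Dlk1, Ndn (−0.39, adjusted p = 0.00771) and Grb10 (−0.37, adjusted p = 0.0359) joined H19, and 3 in C22, where Peg3 (adjusted p = 0.0517) was lost. Over all 13993 genes the block fits called 3691 in C3 and 6170 in C22, in either direction. The difference between the C22 and the C3 effect was called for 0 of 9 (background 12.1%), being −0.06 for H19 (interval −1.08 to 0.97) and −0.22 for Dlk1 (interval −1.84 to 1.4). These 2 comparisons have separate control libraries.

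**Figure D4:**
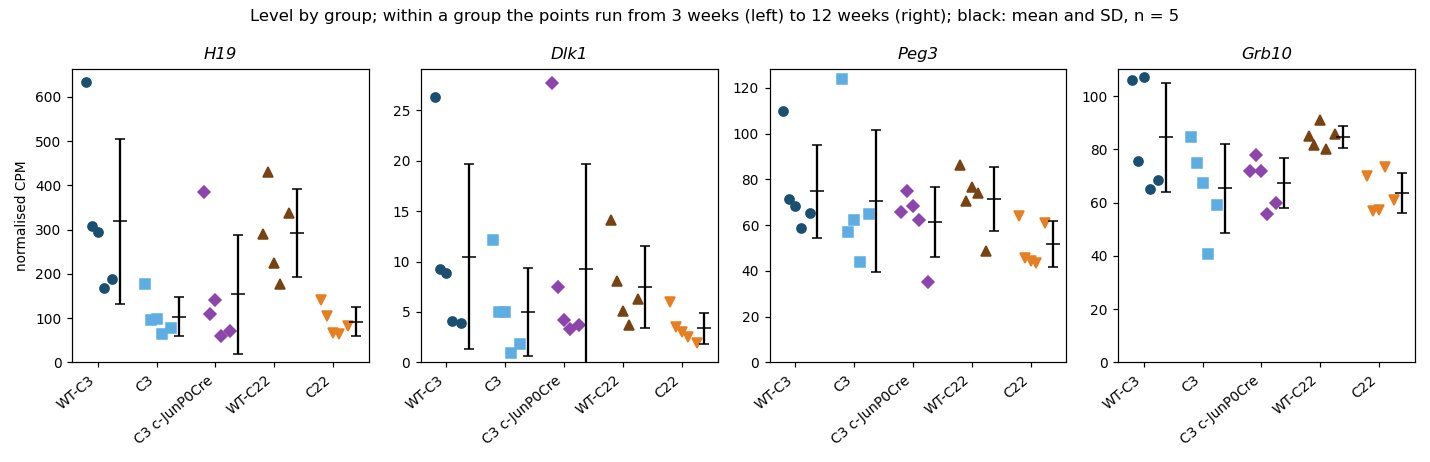
Level of H19, Dlk1, Peg3 and Grb10 in the 5 groups (CPM, linear axis from 0), with 1 point per library and the mean ± SD of 5. H19 is at 92.3 to 103 on average in C22 and C3 and at 292 to 319 in their controls, and the lower end of the Dlk1 bar of C3 c-JunP0Cre (9.29 ± 10.5) is below the axis.

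No difference was detected between C3 c-JunP0Cre and C3. In C3 c-JunP0Cre compared to C3, which shares the C3 libraries with the comparison above, 0 of 9 genes were called (background 0.550%). H19 was at 154 ± 134 CPM in C3 c-JunP0Cre, a log2 change of 0.56 (interval −0.53 to 1.65), with its value of 385 at 3 weeks 2.16 times that of C3 and its 12-week value of 71.2 close to the 77.0 of C3. Dlk1 had a log2 change of 0.73 (interval −0.83 to 2.29), and Meg3 was lower at 5 of 5 ages, at 0.702 to 0.926 times C3, with a log2 change of −0.36 (interval −1.08 to 0.36). The interval of H19 reaches 1.65, which includes a rise as large as the gap between C3 and its control.

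Between the 2 control strains 0 of 9 genes were called, where 21.7% of all genes were. The order of the group means of H19 was WT-C3, WT-C22, C3 c-JunP0Cre, C3 and C22, and the 2 controls differed by less than their spread, with a log2 change of −0.14 (interval −0.93 to 0.66).

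Igf2 itself was close to the detection limit. It was at 3.34, 1.57, 1.37, 0.712 and 0.914 CPM in WT-C3, at 0.568, 0.192, 0.280, 0.903 and 0.625 in C3 and at 0.622, 0.278, 0.369, 0.122 and 0.479 in C3 c-JunP0Cre. It was at 0.655, 0.636, 0.293, 0.357 and 0.552 CPM in WT-C22 and at 0.538, 0.144, 0.429, 0.221 and 0.114 in C22, so WT-C3 had the highest level at 4 of the 5 ages. These values rest on 2 to 43 counts. Igf2 shares 58.41% of its exon bases with a same-strand gene model, Gm49394, to which 1 count was given in all, so reads of that stretch may have been left out as ambiguous. With no filter on low counts Igf2 was lower in C3 (log2 change −1.84, SE 0.46, adjusted p = 0.0151), a call lost without C3 at 5 or 7 weeks or WT-C3 at 3 weeks (−1.64 to −1.35, adjusted p from 0.0519 to 0.065). In C22 the change was −0.71 (SE 0.43, adjusted p = 0.308) and the common age slope −0.09 (SE 0.04, adjusted p = 0.201). Mir675, the microRNA within H19, had 0 counts in all 25 libraries of this poly(A) assay. It shares exon bases with H19 on the same strand, so reads over it may likewise have been left out as ambiguous.

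Mest and Cdkn1c overlap antisense genes, Copg2 (47.71% of the exon bases of Mest) and Gm44732 (29.0% of those of Cdkn1c). The library kit keeps strand, but the strand setting of the counting is not given in the sources used here, so Mest counts, beside the 126 to 3048 of Copg2, and Cdkn1c counts, beside the 0 to 41 of Gm44732, carry this uncertainty.

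The genes resembled each other in part. Over the 25 libraries, the log2 CPM of H19 was most like that of Dlk1 (Pearson's r 0.81), Dlk1 like Ndn (0.87), Grb10 like H19 (0.76), Meg3 like Peg3 (0.69), Mest like Dlk1 (0.68) and Plagl1 like Meg3 (0.65). Cdkn1c had no partner above 0.06 and its lowest value was −0.47, with Meg3. These libraries share groups and ages, so the coefficients describe a common course and are not tests. The genes most like the mean profile of the 9 were Fstl1 (r 0.912), Loxl2 (0.885), Calu (0.877), Col6a1 (0.877) and Col6a2 (0.867) over the 25 libraries, of which Loxl2 cross-links collagen and Col6a1 and Col6a2 are chains of type VI collagen.

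Fibroblast markers moved with age in both directions, and over all genes 13.0% were called lower and 15.5% higher with age. Of 7 fibroblast markers 4 fell with age, Col3a1 (slope −0.20), Col1a1 (−0.18), Col1a2 (−0.13) and Lum (−0.04), 2 rose, Dpt (0.09) and Dcn (0.04), and Pdgfra had a slope of −0.01. Between 3 and 12 weeks 3 of the 7 were called lower and 2 higher. Their summed level was 22000 to 29100 CPM over the groups at 3 weeks and 10800 to 15100 at 12 weeks, and within groups its r with the 10 genes was 0.93 for Dlk1, 0.91 for Mest, 0.86 for Ndn, 0.85 for H19 and Meg3, 0.78 for Plagl1, 0.64 for Grb10, 0.52 for Peg3, 0.42 for Igf2 and −0.24 for Cdkn1c. Of 5 myelinating Schwann cell markers 3 fell with age, the sum going from 17800 to 36600 CPM at 3 weeks to 17300 to 23700 at 12 weeks. Adipocyte markers rose, 4 of 4, from 124 to 570 CPM at 3 weeks to 617 to 1880 at 12 weeks, and 3 of 4 perineurial markers rose. Within groups the r of Dlk1 was −0.80 with the perineurial sum, −0.71 with the adipocyte sum and 0.64 with the myelinating Schwann cell sum. For Meg3 these were −0.83, −0.80 and 0.73, and for H19 −0.73, −0.69 and 0.59. Such coefficients, those of the fibroblast sum included, describe a common course with age and are not tests. Each sum adds CPM, so its most highly expressed markers weigh most in it. The part of these cell types in the decline of the imprinted genes was not tested. Skeletal muscle fibre markers had 0 calls with age or in any comparison of groups, and the markers of developing muscle were at or near 0, with at most 11 counts in a library (Myog).

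Between each model and its control, 0 of 7 fibroblast markers were called in C3 and 1 was called lower in C22, which is near the background. The marker counts here are to be read beside all genes, of which 11.4% were called lower and 12.5% higher in C3, and 20.5% and 21.9% in C22. The 4 perineurial markers fell in C22 (859 to 1110 CPM summed, compared to 1270 to 1950 in WT-C22) and 3 of them in C3 (1150 to 1580, compared to 1210 to 1890), and myelinating Schwann cell markers summed to 13900 to 19300 CPM in C22 and 19300 to 26400 in C3, compared to 21000 to 36600 and 23700 to 32700 in the controls. Markers of immature or repair Schwann cells were called higher for 4 of 5 in C3 and 3 of 5 in C22, where Gap43 was called lower (−0.88, adjusted p = 0.00743). Their part in the lower H19 level was not tested.

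**Figure D5:**
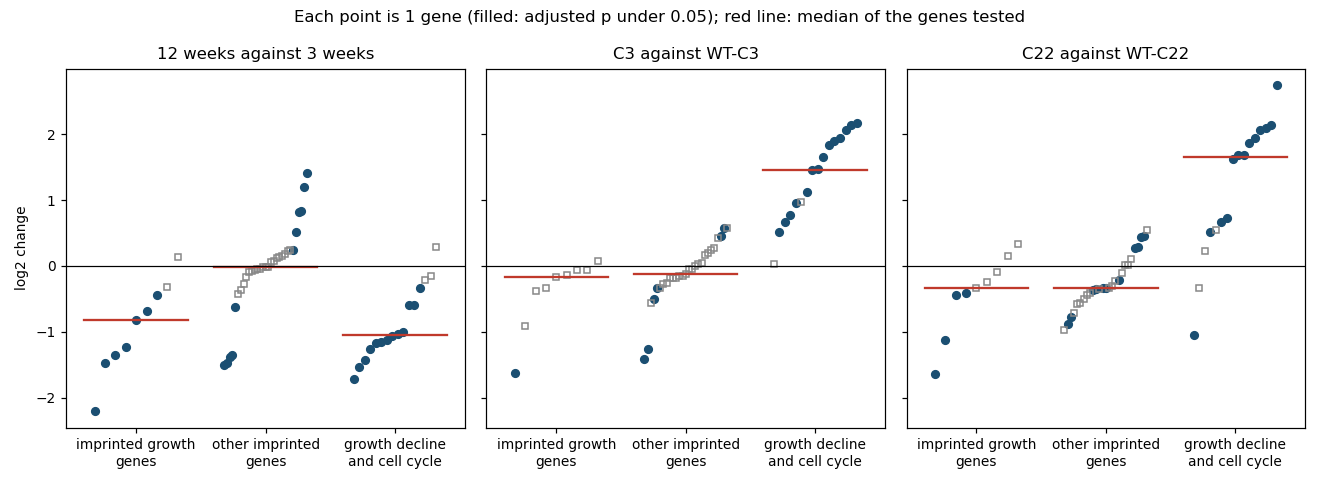
Log2 change of each gene (1 point per gene, filled where adjusted p is under 0.05, red line for the median) in the imprinted growth genes, the other imprinted genes and the growth decline and cell cycle list, for 12 against 3 weeks and for each model against its control. The growth decline and cell cycle list has 13 of 16 genes called lower at 12 weeks (9.91% of all genes) but 14 called higher in C3 (12.5%) and 12 in C22 (21.9%).

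The wider imprinted family moved in both directions. Of 31 other imprinted genes tested 5 fell and 7 rose with age, with a median slope of 0, beside 13.0% of all genes called lower and 15.5% called higher, so these counts are near the background. The members that fell included Rian (slope −0.18, adjusted p = 1.19e-07) and Mirg (−0.17, adjusted p = 2.09e-06), noncoding RNAs of the Dlk1-Meg3 domain, Zim1 (−0.14, adjusted p = 0.00105), the neighbour of Peg3, and Peg12 (−0.14, adjusted p = 0.000615), a neighbour of Ndn, whereas Nap1l5 rose (0.13, adjusted p = 0.000724). Against the controls 27 of them were tested, of which 4 were called lower and 2 higher in C3 (median log2 change −0.13) and 7 lower and 4 higher in C22 (median −0.34), with 0 called in C3 c-JunP0Cre compared to C3. Over all genes 11.4% were called lower and 12.5% higher in C3, and 20.5% and 21.9% in C22. Among all genes within 500 kb of the 10, 13 of 67 fell and 8 rose with age, and next to Igf2, where 12 were tested, 0 fell and 2 rose.

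Of 14 tested genes of the IGF axis, which carries the growth signal of IGF1 and IGF2, 2 fell with age, the RNA-binding protein gene Igf2bp2 (slope −0.09, adjusted p = 4.25e-07) and the binding protein gene Igfbp2 (−0.08, adjusted p = 0.017). The 5 that rose were Igfbp4 (0.08), Igfbp5 (0.06), Igfbp6 (0.06), the adaptor gene Irs2 (0.05) and the receptor gene Igf1r (0.04). These counts, too, are to be read beside 13.0% of all genes called lower and 15.5% higher with age. In C3 2 of 14, against 11.4% of all genes, were called lower, Igf2bp1 (log2 change −1.07) and Igfbp7 (−0.67). In C22, where 20.5% of all genes were called lower and 21.9% higher, Igf2bp1 (−2.25), Irs1 (−0.98), Igf1r (−0.67), Igfbp5 (−0.63) and Igf2r (−0.22), the imprinted receptor that clears IGF2, were called lower and Igfbp2 (1.27) and Igf2bp2 (0.73) higher. In C3 c-JunP0Cre compared to C3 none of the 14 was called.

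Of 16 tested genes that mark growth and dividing cells, 13 fell with age and 0 rose, beside 13.0% of all genes called lower and 15.5% higher. Their median slope was −0.11 log2 units per week. The largest falls were those of Hmga2 (−0.20), a chromatin protein of growing tissue, and the mitotic genes Bub1 (−0.18), Mki67 (−0.17), Top2a (−0.15) and Ccnb1 (−0.13). Against the controls most were higher, with 14 of 16 called higher in C3 (median log2 change 1.46), among them Mki67 (2.14) and Hmga2 (1.47), where 12.5% of all genes were. In C22 12 were called higher and 1 lower, Plag1 (−1.05), with a median of 1.65, where 21.9% of all genes were called higher and 20.5% lower. Hmga2 did not pass in C22, at −0.34 (adjusted p = 0.587), and none of the 16 was called in C3 c-JunP0Cre compared to C3.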

How the data were processed

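RNA-seq was made from pooled sciatic nerves in 25 libraries (5 groups at 5 ages). The authors trimmed reads with cutadapt 2.10 (FastQC 0.11.9 for quality), aligned them with STAR 2.7.5a to GRCm39 plus the human transgene locus, used UMI-tools 1.1.1, counted with HTSeq 0.12.4 on Ensembl 110 and deposited raw counts per gene. The 5 summary lines stayed out of library sizes (reads in no gene 8.119 to 12.112%, ambiguous 1.779 to 2.038%, not unique 2.756 to 3.934%).

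Symbols and positions came from GENCODE on GRCm39, which named 56323 of 56941 mouse genes, 15 further genes being human. CPM used TMM factors. Tests were edgeR 4.0.16 quasi-likelihood fits (R 4.3.3), two-sided, with Benjamini-Hochberg adjustment over all genes tested and a threshold of 0.05. Groups were compared without an age term on 13993 genes with log2 CPM above 1 in at least 7 libraries (25%, prior count 2), so the 5 ages served as replicates, and p-values measure the spread between pools of different ages. Age was fitted on 15298 genes that passed filterByExpr, with a natural spline of 3 degrees of freedom, a line per group, 1 common line, or age as a factor. DESeq2 1.42.0 was an alternative, beside other scalings, filters and left-out libraries.

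Ages pair libraries of different groups only by number. Deviations from the group means correlated above 0.1 at every age in C3 c-JunP0Cre with C3 alone (0.124 to 0.615).

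The members and all gene lists were chosen with earlier results of these data known. The rule named all 10 members, the 5 other imprinted genes and the 5 growth genes with the largest common age slopes, the IGF axis genes called in that slope and the 5 genes most like the members' mean profile. A marker gene is not reported here and was left out of its list. Marker genes, Plag1, and the IGF axis genes given for C3 and C22 were named after their values were seen. A gene at 3 counts or fewer was taken as at the detection floor, and intervals cover the spread between libraries only.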

Additional observations from a re-analysis of the deposited data

Results flagged for a closer look

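Peg3 in C3 c-JunP0Cre at 12 weeks was far below the other libraries of its group, at 35.2 CPM against 62.4 to 74.9 at the other 4 ages. The gap to the nearest library took 0.761 of the group's whole range on the log2 scale, above the critical value of 0.71 for 5 libraries. Of the 50 sets of 5 libraries examined in this way it was the single one, and chance alone gives about 1 in 20. The libraries of a group differ in age, and age and a chance departure of this pool cannot be told apart. None of the 54 tests that compare slopes between groups, or the C22 effect with the C3 effect, was called.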

How the results depend on the processing

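Single libraries are the main limit, since each group has 1 per age, and low counts are another, Igf2 resting on 2 to 43 and Dlk1 in C3 at 9 weeks on 2. Of the values recomputed for single members under other settings, 532 kept direction and call, 49 became called, 41 lost the call and 3 turned direction. The cause of these changes was not tested.

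Without the 3-week libraries the number of members with a called slope was 0 in WT-C3, C3 and C22, 1 in C3 c-JunP0Cre and 4 for the common slope, and Peg3 in C3 (0.01) and Ndn in C3 c-JunP0Cre (0.02) changed direction. Calls over all genes fell in these fits as well, to 7 in WT-C3, 85 in C3, 2 in C22, 203 in C3 c-JunP0Cre and 1813 for the common slope. On FVB/NRJ alone 2 members had a called common slope, 1 fell between 3 and 12 weeks, and H19 from 3 to 5 weeks was at 0.02; in WT-C3, C3 and C3 c-JunP0Cre, whose background the labels do not give, 2 fell from 3 to 5 weeks. With no filter on low counts the splines called 6 in WT-C3, 7 in C3, 8 in C3 c-JunP0Cre, 5 in WT-C22 and 5 in C22, 1 member fell from 3 to 5 weeks, 2 differed in C3 and 1 between the controls. The spline of H19 in WT-C3 thereby went from an adjusted p of 0.189 to 1.31e-11. As the share of all genes called by these unfiltered splines is not given here, their higher counts are no added support. DESeq2 called 5 splines in WT-C3 and 2 in WT-C22, 1 fall from 3 to 5 weeks and 2 members in C3. A spline of 2 degrees of freedom called 2 in WT-C22, the logarithm of age 2 slopes in WT-C22, library size alone 0 slopes in C22, and filterByExpr given the groups 2 members in C3. All libraries in 1 fit called 2 in C22, as did leaving out the 2 libraries highest in muscle markers, chosen after seeing the data (Dlk1 −1.1, adjusted p = 0.0586). Scaling by library size alone moved the median of all genes by 0.17 in C22 and made 76.0% of the calls there higher, and Cdkn1c was then called (0.5, adjusted p = 0.0279) while Dlk1 (−0.94, adjusted p = 0.0501) and Peg3 (−0.28, adjusted p = 0.161) were not.

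With age as a replicate block, 4 members were called in C3, and likewise 4 with all libraries, 3 in C22 (Peg3 then at adjusted p = 0.0517), 0 in C3 c-JunP0Cre compared to C3 and 1 between the controls (Meg3 −0.28, adjusted p = 0.048). Of all 13993 genes these fits called 3691 in C3, 4843 there with all libraries, 6170 in C22, 273 in C3 c-JunP0Cre compared to C3 and 3721 between the controls.

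Leaving out 1 library at a time gave 0 to 4 spline calls in WT-C3, 0 to 4 in C3, 0 to 6 in C3 c-JunP0Cre, 0 to 3 in WT-C22 and 0 to 1 in C22, and 0 to 4, 0 to 4, 1 to 5, 0 to 1 and 0 to 1 slope calls. Without its own 3-week library WT-C3 lost Dlk1, Meg3, Mest and Plagl1, C3 the same 4, C3 c-JunP0Cre H19, Dlk1 and Mest, and the FVB/NRJ groups Meg3, and the slopes of Peg3 in C3 (range −0.23 to 0.01) and Ndn in C3 c-JunP0Cre (range −0.14 to 0.02) turned. C3 also lost its 4 calls without its 12-week library. The call of Meg3 in WT-C3 and that in C22 were each lost in 14 of the 25 fits. Common slopes gave 7 to 8 calls, 12 against 3 weeks 7 to 8, 5 against 3 weeks 0 to 1, C3 1 to 2, C22 2 to 4, C3 c-JunP0Cre compared to C3 0, the controls 0 to 1 (Mest 0.83 without WT-C3 at 3 weeks, adjusted p = 0.0215), and every difference between slopes or between the 2 model effects 0.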
